A study of Homo sapiens with 3 samples.

Results

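The classical MHC class II genes, the genes of the HLA-DM peptide editor, the invariant chain gene CD74 and the class II transactivator gene CIITA were described on 3 one-color expression arrays of THP-1 macrophages. These 10 genes (HLA-DRA, HLA-DRB1, HLA-DPA1, HLA-DPB1, HLA-DQA1, HLA-DQB1, HLA-DMA, HLA-DMB, CD74, and CIITA) were taken by the gene name that the array design gives to each transcript probe. They accounted for 10 of 43317 gene names and for 22 of 58201 transcript probes. THP-1 is a human monocytic leukemia line, and all 3 cultures had first been made macrophage-like with 100 ng/mL PMA, a phorbol ester, over 24 to 36 h. The Ctrl cells received neither further agent, the IMQ cells received imiquimod, a TLR7 agonist that produces psoriasis-like inflammation in mouse skin, and the IMQ+DMD cells received DMD, a benzenoid of the fungus Antrodia cinnamomea, before imiquimod. The label of the last sample writes X for the added compound, and X was read as DMD because the treatment text names no other. The labels give a time of 4 h. The 3 RNA samples lay on 1 slide, with 1 array per condition.

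MHC class II molecules are pairs of an α and a β chain that carry peptides from endosomes to the surface of antigen-presenting cells, where CD4+ T cells read them. The invariant chain CD74 fills the groove of new class II molecules and guides them to endosomes, where proteases cut it down and HLA-DM exchanges its remnant for antigen peptides. CIITA is the coactivator on which class II transcription depends. It binds no DNA by itself and acts through the factors seated on the X and Y boxes of class II promoters, and macrophages raise it mainly in response to interferon-γ.

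**Figure D1:**
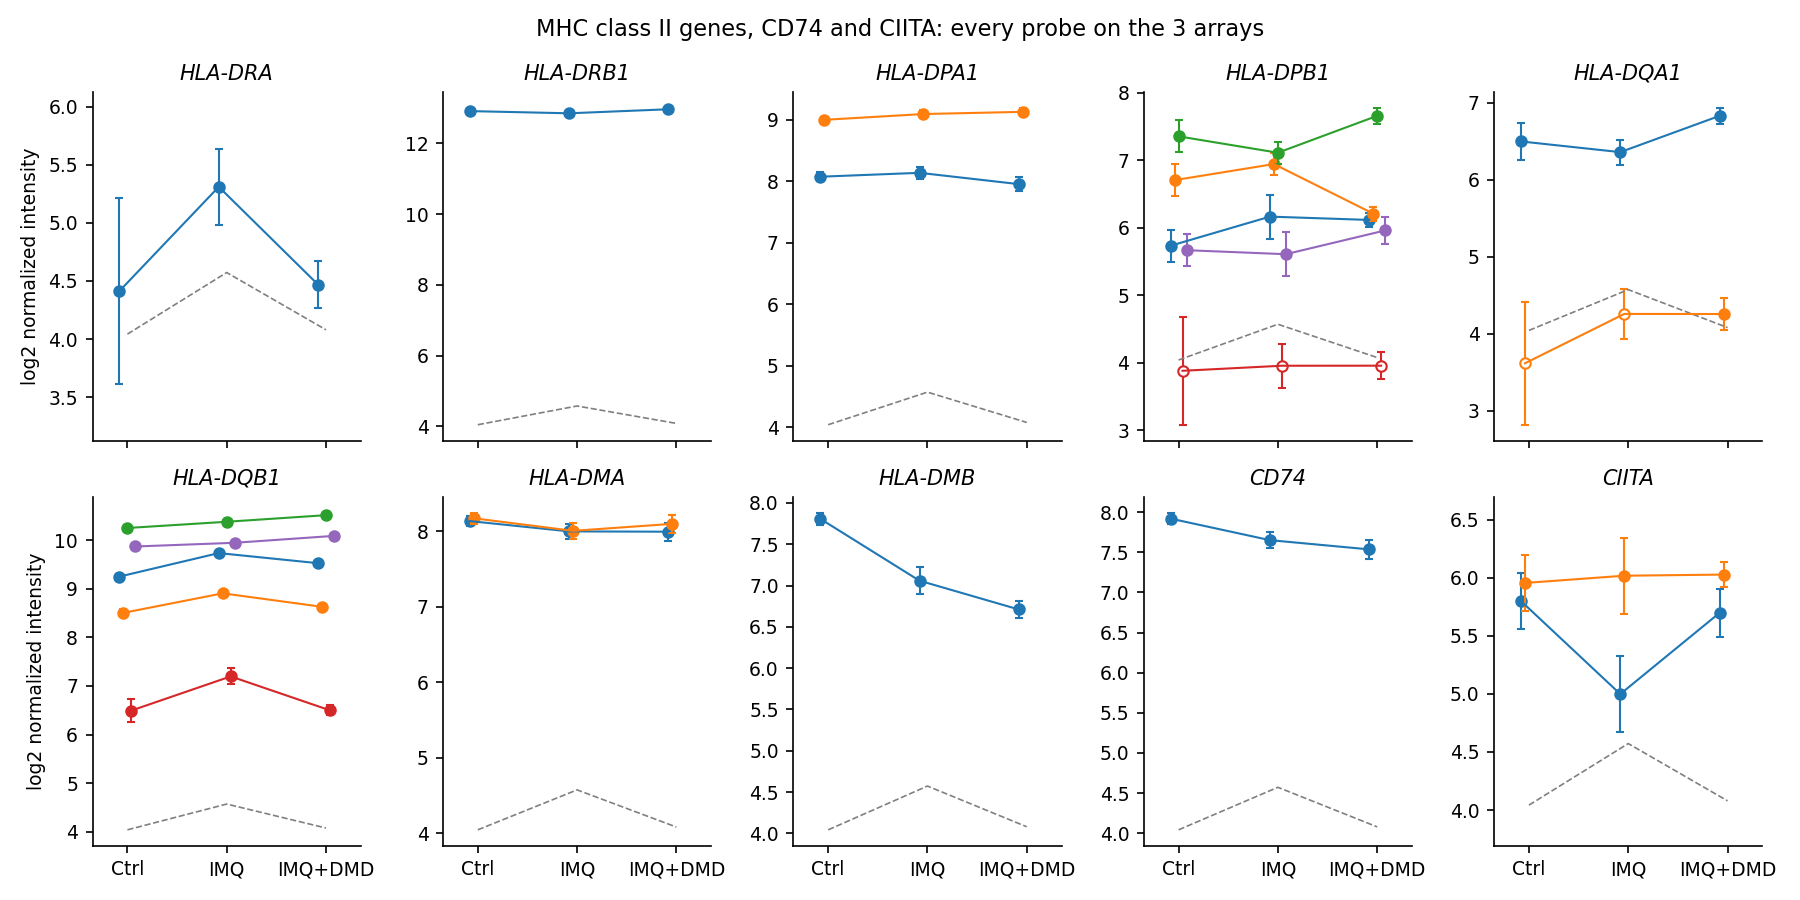
The log2 quantile-normalized intensity (vertical axis) of each of the 22 probes is plotted for the Ctrl, IMQ, and IMQ+DMD arrays, with 1 panel per gene and 1 color per probe. Error bars are the technical SD of repeated spots, open circles mark probes that were not well above background, and the dashed line is the lowest value of probes well above background. Most lines are close to flat, HLA-DMB steps down across the 3 arrays, and HLA-DRA stays close to the dashed line.

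Values are the quantile-normalized intensities that the authors deposited, and differences are on the log2 scale between single arrays. With 1 array per condition no p-value could be computed, so every difference describes these 3 arrays. The error given after a difference is a technical SD, which comes from probes printed 10 times on each array and covers noise within an array only. It leaves out the spread between cultures, which was not measured. A gene with several probes was represented by the probe with the highest mean log2 value. Only probes called well above background on the brighter array of a pair entered a comparison.

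No class II member reached a 2-fold difference in either direction between IMQ and Ctrl (0 higher and 0 lower of 10). Over all 31851 genes compared, 4.17% were at least 2-fold higher and 3.59% at least 2-fold lower after IMQ. The median log2 difference of the members was -0.10, beside -0.02 over all genes, with 4 genes higher and 6 lower. Over the 20 member probes compared, the median after IMQ was 0.06, so its sign depended on taking 1 probe per gene. Between IMQ+DMD and IMQ the members likewise gave 0 higher and 0 lower at 2-fold, where 1.19% of 31700 genes were higher and 1.25% were lower. The median was 0.06, beside 0.00 over all genes. At 1.5-fold, HLA-DRA was the 1 member higher and HLA-DMB the 1 lower after IMQ, where 10.7% of all genes were higher and 10.6% lower. For IMQ+DMD against IMQ, 0 members were 1.5-fold higher and 1, HLA-DRA, was lower, where 6.67% and 5.45% of all genes were. Both comparisons use the same IMQ array, so an error of that array moves them in opposite directions.

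The sign of some members depended on the scaling between arrays. It turned under at least 1 of 3 other scalings for 4 of 10 members after IMQ (HLA-DRB1, HLA-DPA1, HLA-DQB1, and CIITA) and for 5 of 10 between IMQ+DMD and IMQ (HLA-DRB1, HLA-DPA1, HLA-DQB1, HLA-DMB, and CD74). Without normalization between arrays, the median of all probes after IMQ shifted to -0.51, and scaled to the spike-in controls it shifted to -0.66. Under these scalings 9 of the 10 members lay below 0 after IMQ, with HLA-DRA as the exception. Measured from the median of all probes, the members' median was -0.09 as deposited and -0.10 under each of these scalings. In the comparison of IMQ+DMD with IMQ, the spike-in controls moved the median of all probes to 0.25, and the members' median relative to it was -0.01, against 0.07 as deposited. The split of all probes past 2-fold also moved. After IMQ, 1773 probes were higher and 1432 lower as deposited, with 1519 and 1924 under 75th percentile scaling, 732 and 6669 under no normalization, and 593 and 9883 under spike-in scaling. Between IMQ+DMD and IMQ, 447 probes were higher and 535 lower as deposited, with 1307 and 274 under 75th percentile scaling, 1684 and 233 under no normalization, and 3141 and 150 under spike-in scaling.

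HLA-DRB1 encodes the polymorphic β chain of HLA-DR. Its probe (hg19 chr6:32548524-32548583, minus strand) had a normalized intensity of 7733 in Ctrl, 7406 in IMQ, and 8018 in IMQ+DMD. The log2 difference was -0.06 ± 0.07 after IMQ and 0.11 ± 0.06 for IMQ+DMD against IMQ. Each was smaller than 2 technical SDs, and the sign of both turned when arrays were scaled to the 75th percentile (0.04 and -0.08). The array design lists HLA-DRB3 as well as HLA-DRB1 for this probe. The paralogs HLA-DRB3 (-0.07 and 0.11), HLA-DRB4 (-0.05 and 0.10), and HLA-DRB5 (-0.03 and 0.07) gave differences of about the same size on probes of their own. Related class II genes share long stretches of coding sequence, so signal may be shared within the family. The probe of HLA-DRB1 and 1 of the 5 probes of HLA-DQB1 resemble each other in sequence, and they are printed here to show how far the array tells these β chains apart. Aligned from their first base, they hold the same base at 45 of 60 positions and differ at the 15 in capitals.
HLA-DRB1 probe: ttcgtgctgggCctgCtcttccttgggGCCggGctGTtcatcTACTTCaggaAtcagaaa
HLA-DQB1 probe at chr6:32629125-32629184 (hg19, minus strand): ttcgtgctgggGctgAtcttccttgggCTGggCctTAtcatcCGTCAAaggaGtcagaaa
No member probe shared a run of 20 or more bases with any other probe of the array.

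HLA-DRA encodes the nearly invariant α chain that pairs with every HLA-DR β chain. Its only probe (hg19 chr6:32412448-32412507, plus strand) read 21.3 in Ctrl, 39.7 in IMQ, and 22.1 in IMQ+DMD. These values lay just above the lowest level called well above background on each array, which was 16.5, 23.8, and 16.9. The difference was 0.90 ± 0.86 after IMQ and -0.84 ± 0.39 for IMQ+DMD against IMQ, the largest of the 10 genes in each comparison as deposited. Scaled to the 75th percentile they were 0.68 and -0.51, when HLA-DMB (-0.87 after IMQ), and HLA-DPB1 and HLA-DQA1 (0.69 for IMQ+DMD against IMQ), were larger in size. With normexp background correction they shrank to 0.34 and -0.33, also below the largest members. Before normalization between arrays the probe read 26.2, 30.8, and 22.6, which gave 0.24 and -0.45. Spike-in scaling gave 0.09 and -0.27. IMQ+DMD differed from Ctrl by 0.06 ± 0.82. As deposited, only the difference between IMQ+DMD and IMQ exceeded 2 technical SDs, but these SDs were borrowed. Too few repeated probes had this brightness on any array. The SD came from dimmer probes on Ctrl (0.80) and from brighter probes on IMQ (0.33) and IMQ+DMD (0.20). The value of 0.39 may thus be too small, and this call does not separate the 2 comparisons. Before normalization, where the SD was measured, the difference of -0.45 did not exceed 2 SDs.

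The HLA-DP genes encode the chains of a further class II isotype. The representative probe of HLA-DPA1, the α chain gene, read 512, 546, and 560 in Ctrl, IMQ, and IMQ+DMD, and the other probe read 270, 282, and 248. Both were slightly higher after IMQ as deposited (0.09 ± 0.09 and 0.06; the first was -0.34 without normalization), and they took opposite signs for IMQ+DMD against IMQ (0.04 and -0.18). HLA-DPB1, the β chain gene, has 5 probes, of which 1 was not well above background on any array. The other 4 ranged from -0.24 to 0.43 after IMQ, and from -0.73 to 0.55 for IMQ+DMD against IMQ. The representative probe, which the design places at hg19 chr6:33048209-33048268 on an Ensembl transcript, read 164, 138, and 202. Another probe, on the RefSeq transcript, read 104, 123, and 74.1. Thus for IMQ+DMD against IMQ the first gave 0.55 ± 0.20 and the second -0.73 ± 0.19, and the mean of the 4 HLA-DPB1 probes compared was 0.03.

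HLA-DQA1 encodes the α chain of HLA-DQ. Its representative probe read 90.4 in Ctrl, 82.1 in IMQ, and 114 in IMQ+DMD, with a difference of -0.14 ± 0.29 after IMQ and 0.47 ± 0.19 for IMQ+DMD against IMQ. The other HLA-DQA1 probe was well above background on the IMQ+DMD array only, where it read 19.1.

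HLA-DQB1, the β chain gene of HLA-DQ, was covered by 5 probes, and all 5 lay higher after IMQ than in Ctrl as deposited. The probes separated in size and, for IMQ+DMD against IMQ, in sign. The representative probe read 1215, 1328, and 1459, with differences of 0.13 ± 0.07 and then 0.14 ± 0.07. The probe at chr6:32629125-32629184, which the design lists for HLA-DQB2 too, read 934, 984, and 1086. No other HLA-DQB1 probe was higher in IMQ+DMD than in IMQ. The representative probe has no hg19 position in the design, but it ends in the 14 bases with which the probe printed above begins, shown in capitals.
HLA-DQB1 representative probe: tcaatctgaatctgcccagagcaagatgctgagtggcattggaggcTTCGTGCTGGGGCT
The remaining 3 HLA-DQB1 probes were higher in IMQ than in both other samples. The probe at hg19 chr6:32627683-32627742 read 608, 850, and 736. The probe at chr6:32627951-32628010 read 363, 479, and 395. HLA-DQB1 is transcribed from the minus strand, so both of these positions lie nearer to its 3′ end. A further probe without a position read 90.1, 147, and 90.5. Differences after IMQ were 0.48 ± 0.08, 0.40 ± 0.10, and 0.70 ± 0.29, and all 3 exceeded 2 technical SDs as deposited. Before normalization between arrays, Ctrl and IMQ read 730 and 773, 436 and 424, and 109 and 121, in the same order. The differences between IMQ+DMD and IMQ were -0.21, -0.28, and -0.70. The representative probe turned to -0.27 after IMQ when arrays were not normalized and to -0.42 with spike-in scaling, and its difference between IMQ+DMD and IMQ was -0.01 under 75th percentile scaling.

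The 2 genes of the HLA-DM heterodimer, which edits the peptides of other class II molecules, gave unequal differences. HLA-DMB, the β chain gene (1 probe, hg19 chr6:32902504-32902563, minus strand), read 224 in Ctrl, 133 in IMQ, and 105 in IMQ+DMD. The difference was -0.75 ± 0.18 after IMQ and -0.35 ± 0.19 for IMQ+DMD against IMQ. Ctrl was the highest sample and IMQ+DMD the lowest. HLA-DMA, the α chain gene, read 289, 258, and 275 on its representative probe and 282, 256, and 255 on the other. Its differences were -0.17 ± 0.12 and 0.09. The HLA-DMB difference after IMQ was thus lower than that of HLA-DMA by -0.58 ± 0.22 on the log2 scale. No scaling turned the sign of HLA-DMB after IMQ: it ranged from -0.49 with normexp correction to -1.46 with spike-in scaling. The smaller step from IMQ to IMQ+DMD did turn, to 0.08, with spike-in scaling.

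IMQ+DMD was also set beside Ctrl, a comparison added after the values had been seen. HLA-DMB was the 1 member at least 2-fold lower, with a difference of -1.10 ± 0.13, and 0 members were at least 2-fold higher. Over 33707 genes, 4.83% were at least 2-fold lower and 3.04% at least 2-fold higher. HLA-DMB stayed past 2-fold when scaled to the 75th percentile (-1.03) and missed it with normexp correction (-0.72).

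CD74, the invariant chain gene, is represented by 1 probe (hg19 chr5:149792222-149792281, minus strand), whose sequence is given because every CD74 value rests on it.
CD74 probe: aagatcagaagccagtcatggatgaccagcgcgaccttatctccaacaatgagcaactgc
It read 242 in Ctrl, 201 in IMQ, and 186 in IMQ+DMD. The difference was -0.27 ± 0.12 after IMQ, -0.12 ± 0.16 for IMQ+DMD against IMQ, and -0.38 ± 0.14 for IMQ+DMD against Ctrl. The sign after IMQ held under every scaling, whereas for IMQ+DMD against IMQ it turned without normalization (0.07) and with spike-in scaling (0.25) and was 0.00 under 75th percentile scaling. None of these differences reached 2-fold.

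CIITA was measured by 2 probes that differed from each other. The representative probe (hg19 chr16:10996598-10996657, plus strand) read 62.0, 64.8, and 65.2, with differences of 0.06 ± 0.41 and 0.01. The probe farther along the gene (chr16:11018667-11018726) read 55.7 in Ctrl, 32.0 in IMQ, and 51.9 in IMQ+DMD, with differences of -0.80 ± 0.41 and 0.70 ± 0.39. Both CIITA probes were dim, and neither difference of the second probe exceeded 2 technical SDs. The sign of the representative probe after IMQ turned when scaled to the 75th percentile (-0.12), without normalization (-0.56), and with spike-in scaling (-0.71).

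**Figure D2:**
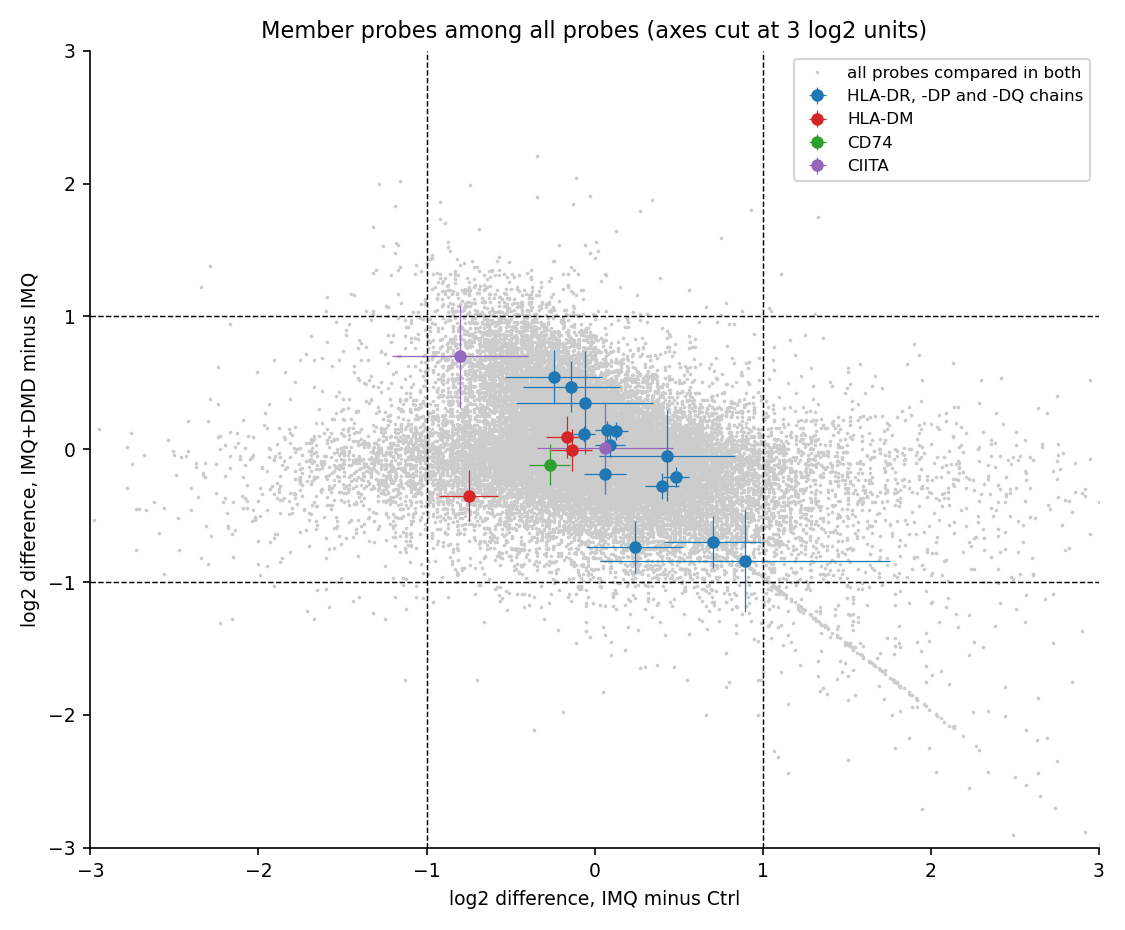
Each member probe compared in both comparisons is plotted by its log2 difference of IMQ from Ctrl (horizontal axis) and of IMQ+DMD from IMQ (vertical axis), with its technical SD as bars, over all probes in grey. Dashed lines mark 2-fold, both axes stop at 3 log2 units, and the thin grey diagonal at the lower right holds probes set to the floor on both the Ctrl and the IMQ+DMD array. No member probe lies beyond a dashed line, and the downward tilt of the cloud includes the IMQ array shared by both axes.

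Across the probes, 20 of 22 member probes could be compared after IMQ, with 11 higher and 9 lower and a range from -0.80 to 0.90. Of these, 3 were higher by more than 2 technical SDs as deposited, all of them HLA-DQB1 probes, and 2 were lower, those of HLA-DMB and CD74. Over all probes the same limit was passed by 17.5% upward and 19.3% downward. For IMQ+DMD against IMQ the 20 probes split 10 to 10, from -0.84 to 0.70. Those past 2 technical SDs numbered 3 upward and 5 downward, where all probes gave 13.2% and 14.6%. The 5 downward probes belonged to HLA-DRA, HLA-DPB1, and HLA-DQB1, and in each of them the IMQ array was the highest of the 3. For HLA-DRA this call used SDs borrowed from probes of another brightness.

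The promoters of the members were searched for the Y box CTGATTGG and for the core of the X box, on both strands, in windows from 250 bases before to 50 bases after each gene's start (RefSeq, GRCh38.p14). Windows were given for 8 of the 10 genes, not for HLA-DRA and CIITA. The X box core was matched, with the letters searched, in HLA-DRB1 only, and in 0.140% of all 35116 windows. Variants of either box with other letters were not searched for. A window without a match is thus not shown to lack the box. The Y box was found in HLA-DRB1, HLA-DQB1, and HLA-DMA, and in 3.97% of all windows. The 70-base stretches around the Y box are printed to show the letters that matched. The Y box is in capitals in each, and the first run of capitals in HLA-DRB1 is the X box core, for which any base was allowed at the sixth position. The motifs do not overlap.
HLA-DRB1 (GRCh38 chr6:32589870-32589939, minus strand): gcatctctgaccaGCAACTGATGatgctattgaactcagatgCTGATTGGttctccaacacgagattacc
HLA-DQB1 (GRCh38 chr6:32666721-32666790, minus strand): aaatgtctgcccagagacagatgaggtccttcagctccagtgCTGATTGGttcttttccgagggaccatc
HLA-DMA (GRCh38 chr6:32953152-32953221, minus strand): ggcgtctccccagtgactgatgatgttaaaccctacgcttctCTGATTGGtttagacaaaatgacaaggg
The Y box begins 49 bases before the start of HLA-DRB1, 91 before HLA-DQB1, and 82 before HLA-DMA. A match of letters describes the sequence and does not show that a factor was bound in these cells.

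All 7 genes for RFX, NF-Y, and CREB1 subunits were well above background, and 0 passed 2-fold in either comparison. NFYB (-0.54) and RFXANK (-0.44) had the largest differences after IMQ, and RFXAP (-0.41) had the largest for IMQ+DMD against IMQ. NFYA was 0.30 after IMQ on its representative probe and -0.04 on the other.

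In the route from interferon-γ to CIITA, 2 of 12 genes rose and 2 fell by at least 2-fold after IMQ. PRDM1, whose product Blimp-1 represses the CIITA gene, read 1724 in Ctrl, 8434 in IMQ, and 8553 in IMQ+DMD. It rose by 2.29 ± 0.07, and by 2.86 on its other probe. Between IMQ+DMD and IMQ it differed by 0.02, and by -0.32 on the other probe. The genes of the interferon-γ receptor chains went opposite ways. IFNGR1, the ligand-binding chain, fell by 1.37 on the log2 scale, whereas IFNGR2, the accessory chain, rose by 1.31. IRF8, a transcription factor of the monocyte lineage, read 1811, 817, and 568, which gave -1.15 ± 0.07 after IMQ and -0.52 ± 0.09 for IMQ+DMD against IMQ. None of the 12 genes passed 2-fold for IMQ+DMD against IMQ.

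Of 10 genes that process the invariant chain and antigen, 8 were higher and 2 lower after IMQ, with a median of 0.17. Scaled to the spike-in controls this median was -0.32, and left unnormalized it was -0.17. LGMN, an asparagine-specific endopeptidase that begins invariant chain cleavage, rose 3.53-fold, from 65.7 in Ctrl to 232 in IMQ, and read 176 in IMQ+DMD. It was the 1 gene of this list past 2-fold after IMQ on its representative probe. CTSL, a cathepsin that completes the cleavage in some antigen-presenting cells, was 0.93 on the representative probe and 1.26 on the other. CTSS, the main cathepsin of this step in B cells and dendritic cells, was 0.03. CTSB, a further lysosomal cathepsin, was 0.66 ± 0.06. For IMQ+DMD against IMQ only CTSZ passed 2-fold, and its probes disagreed, with 1.37 on the first and 0.04 on the other.

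Among 12 genes of class II trafficking and turnover, 11 were compared after IMQ and ARL14 was not well above background on any array. MARCH1, a ubiquitin ligase that removes class II molecules from the cell surface, read 81.1 in Ctrl and was not well above background in IMQ or IMQ+DMD. It was at least 3.41-fold lower after IMQ, a bound set against the lowest value of probes well above background. CD82, a tetraspanin of class II compartments, rose by 1.06 ± 0.07. AP2M1, an adaptor subunit of endocytosis, was -0.67. No gene of this list passed 2-fold for IMQ+DMD against IMQ.

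CD74 also serves at the cell surface as a receptor for the cytokine MIF, together with CD44, CXCR2, and CXCR4. MIF (-0.05) and its homolog DDT (-0.22) stayed below 2-fold after IMQ, as CD74 did. CXCR4 rose 12.5-fold, from 1062 in Ctrl to 13272 in IMQ, and read 9425 in IMQ+DMD. CXCR2 read 247, 65.1, and 53.7, so that it was lower by -1.92 ± 0.34 on the log2 scale after IMQ. CD44 rose 2.82-fold on its representative probe, and the other CD44 probe gave -0.11. For IMQ+DMD against IMQ, CXCR4 was -0.49 ± 0.06, and 0 of the 5 genes passed 2-fold.

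**Figure D3:**
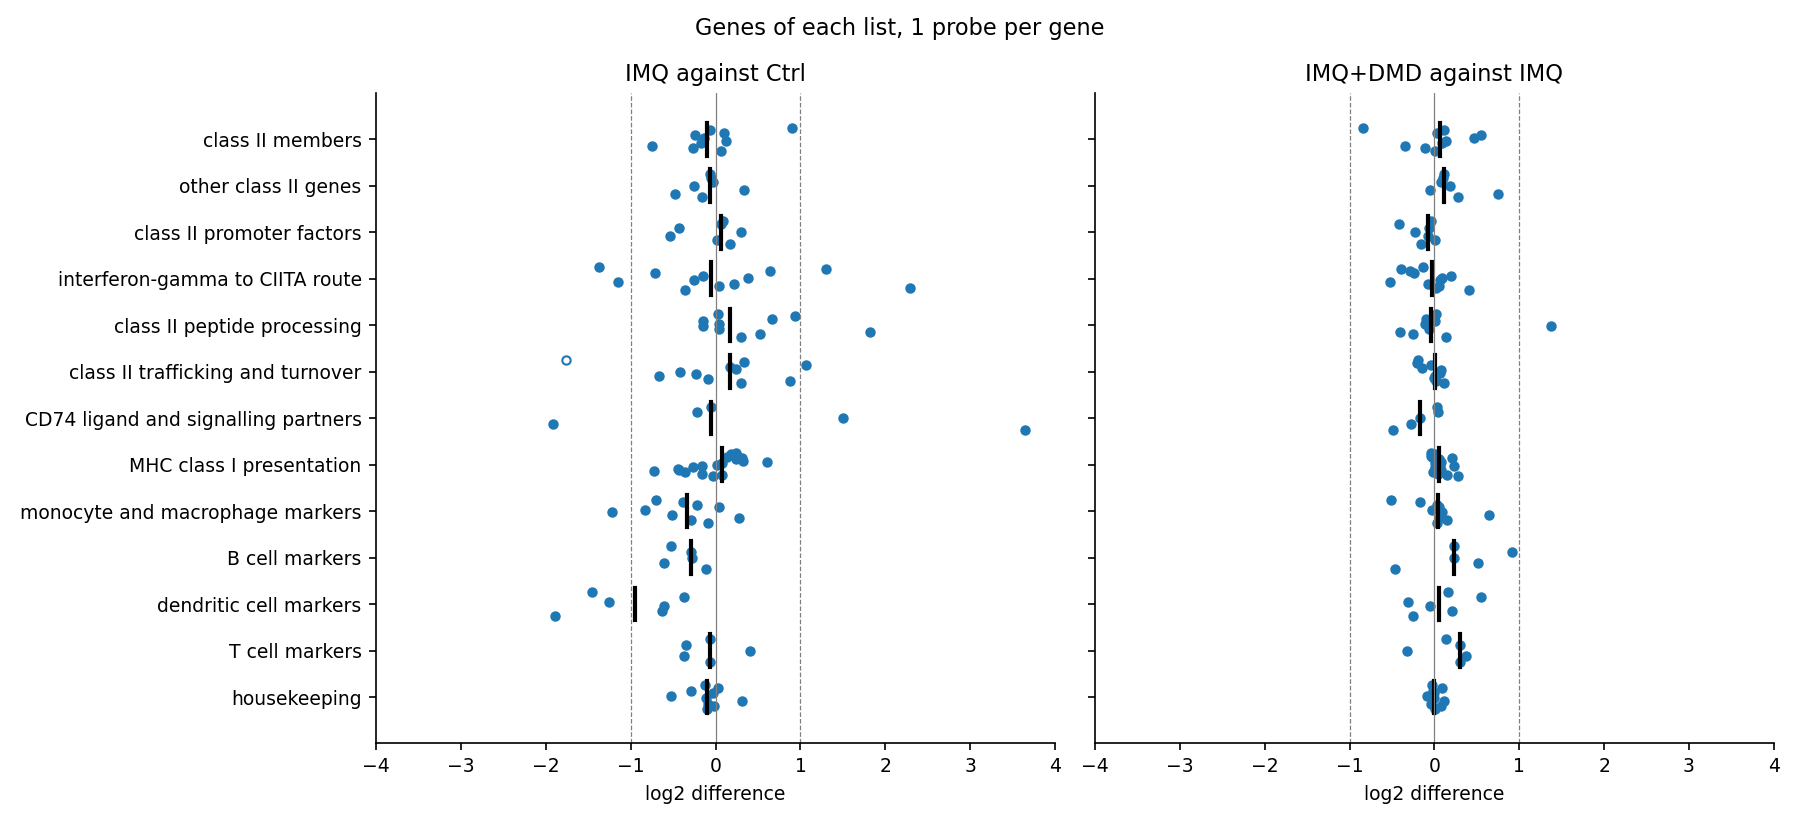
The log2 difference of each gene (horizontal axis) is plotted by gene list for IMQ against Ctrl (left) and IMQ+DMD against IMQ (right), with 1 representative probe per gene. Black bars are list medians, dashed lines mark 2-fold, and the open circle is the bound for MARCH1. The class II members lie within the dashed lines in both panels, while CXCR4 (3.64) and PRDM1 (2.29) lie farthest to the right after IMQ.

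Of 7 other class II genes on the array, 0 passed 2-fold in either comparison, and the medians were -0.07 after IMQ and 0.11 for IMQ+DMD against IMQ. On representative probes, HLA-DOA, a chain of the HLA-DM inhibitor HLA-DO, had the largest difference. It read 91.2, 65.4, and 110, with -0.48 ± 0.41 after IMQ and 0.75 ± 0.34 for IMQ+DMD against IMQ, and its other probe gave -0.06 and -0.17. HLA-DOB, its partner, gave -0.16 and 0.28. HLA-DQB2 was 0.33 and HLA-DQA2 -0.26 after IMQ, and the other HLA-DQA2 probe gave -0.56.

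Genes most like 3 members were sought by the distance between their pairs of log2 differences, over 17017 genes well above background on all 3 arrays. For CD74 these were RMDN1, MAP6D1, TMEM39B, PROSER1, and ATAD3C, and 522 genes lay within 0.1 log2 units of it. For CIITA these were NOMO1, SERPINB13, TNK2, ZNF26, and ANTXRL, with 1268 genes within 0.1. For HLA-DRA these were C10orf55, RAX, PDE6H, LOC100240734, and LTBP1, and 5 genes lay within 0.1. These distances are smaller than the technical SDs of CD74 (0.12 and 0.16), HLA-DRA (0.86 and 0.39), and CIITA (0.41 and 0.34). Both differences also use the IMQ array, so for all 3 members the order of the genes named is within noise.

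Of 10 monocyte and macrophage markers found by name, 10 were well above background on every array, including CD14, CSF1R, ITGAM, and TYROBP. So were 5 of 5 T cell markers, and on the Ctrl array 6 of 6 B cell and 7 of 8 dendritic cell markers, so this measure does not tell cell types apart. The median difference of the monocyte and macrophage markers after IMQ was -0.33, beside -0.10 for the class II members, and CD163, a scavenger receptor of macrophages, fell by 1.22. CD14 was -0.71 after IMQ and -0.51 for IMQ+DMD against IMQ. Among 10 housekeeping genes, 0 passed 2-fold, with medians of -0.10 and 0.00. In whole cultures, fewer cells that express a gene and less RNA per cell cannot be told apart.

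**Figure D4:**
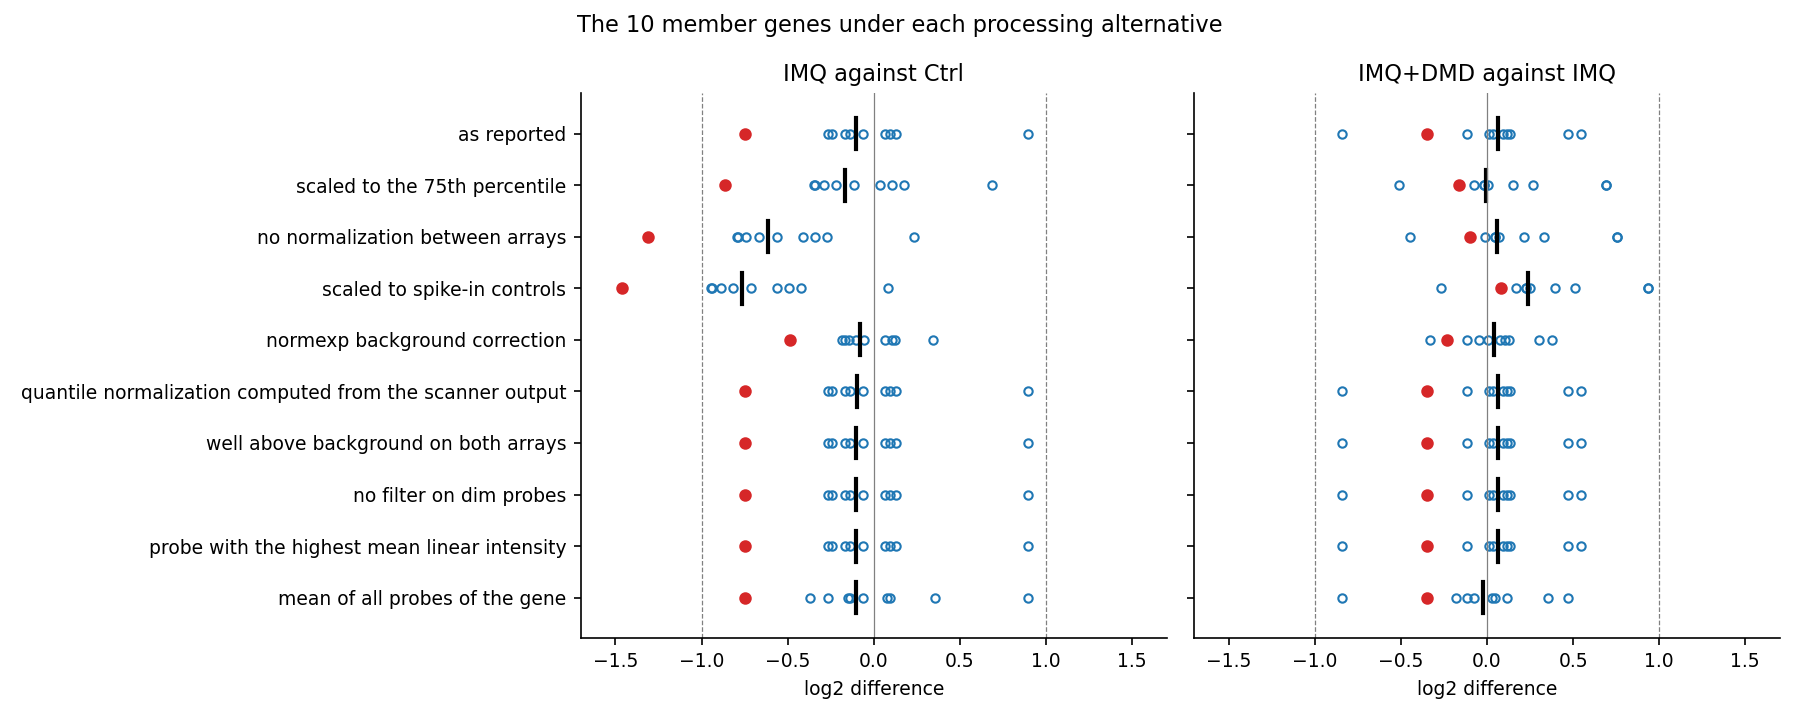
The log2 difference of each member gene (open circles, HLA-DMB filled) is plotted by processing alternative for IMQ against Ctrl (left) and IMQ+DMD against IMQ (right). Black bars are the medians of the 10 genes and dashed lines mark 2-fold. HLA-DMB passes the 2-fold line only without normalization (-1.31) and with spike-in scaling (-1.46), both for IMQ against Ctrl.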

How the data were processed

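RNA of 3 THP-1 cultures was measured on 3 one-color arrays of 60-base probes on 1 slide. For each array the authors deposited the scanner output (Feature Extraction 10.5.1.1, hg19 probe annotation), which holds the background-corrected intensity of every spot and its quality marks, and for the series a table of raw and quantile-normalized intensity per probe. On 57901 probes printed once, the raw column and the scanner output matched to within 0.1%. The study's methods describe a longer imiquimod exposure for its THP-1 experiments in general than the 4 h of the labels.

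The normalized intensity was converted to log2. Each array's floor was its lowest value among probes well above background, and a dim probe below the floor was raised to it. Well above background were 72.0% of probes in Ctrl, 66.6% in IMQ, and 71.9% in IMQ+DMD. Precision is limited by the number of arrays. The technical SD is the median SD of log2 intensity before normalization between arrays, from the 300 probes with 10 spots. It is taken in the nearest brightness class of 1 log2 unit that holds at least 5 such probes. The alternatives were computed with limma 3.58.1 in R 4.3.3 and with Python 3.11.15, numpy 2.4.6, and pandas 2.3.3. The 2-fold calls were tested on simulated data with large changes in bright probes only. Calls on dim probes and smaller differences were not covered.

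All probes of the 10 members were named. From every other list, genes at least 2-fold different in either comparison were named and, where fewer than 4 were, those with the largest differences. Not every gene meeting this rule is reported here, and genes named beyond it were picked with their values known. The members and lists were chosen with earlier results of these data known. All lists came from general knowledge of the pathway. Alternatives were other scalings between arrays, normexp correction with an offset of 50, other filters on dim probes, other choices of probe per gene, and a 1.5-fold threshold.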

Additional observations from a re-analysis of the deposited data

How the results depend on the processing

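At 1.5-fold, 1 member was higher (HLA-DRA) and 1 lower (HLA-DMB) after IMQ, and 1 was lower (HLA-DRA) for IMQ+DMD against IMQ. Without normalization between arrays, 1 member (HLA-DMB) was at least 2-fold lower after IMQ and the members' median was -0.61. With spike-in scaling, 1 member (HLA-DMB) was lower and the median was -0.77, as the median of all probes also moved down under both. With normexp correction, fewer probes passed 2-fold, 723 higher and 719 lower after IMQ and 21 and 38 for IMQ+DMD against IMQ. Without a filter on dim probes, 3751 were higher and 3853 lower after IMQ, and 2491 and 2229 for IMQ+DMD against IMQ. Restricted to probes well above background on both arrays, 287 were higher and 305 lower for IMQ+DMD against IMQ.

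Of the differences of member genes run under the alternatives, 70 of 270 moved. For the other gene lists, 29 of 216 counts past 2-fold and 39 of 216 medians moved. After IMQ, with unnormalized arrays and with spike-in scaling alike, the dendritic cell count of 3 was 6 and the macrophage count of 1 was 4. Over all alternatives, the trafficking count of 2 was 1 to 3 and the processing count of 1 was 1 to 2. The interferon-γ route count was 4 under all alternatives run. An equal count does not show that the same genes passed, or that they split alike into higher and lower. Low signal limits the values of HLA-DRA, CIITA, HLA-DQA1, HLA-DPB1, and HLA-DMB. No paired analysis was possible because each condition has 1 sample. Slide as a block was not run, since all arrays lie on 1 slide and leaving out an array would leave no sample in its condition.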

Other observations

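MHC class I presentation, which loads peptides of the cytosol, gave 0 of 19 genes past 2-fold in either comparison, with medians of 0.07 after IMQ and 0.05 for IMQ+DMD against IMQ. TAP1, a subunit of the peptide transporter, was 0.60 ± 0.06 after IMQ, and B2M, the light chain of class I molecules, was 0.32 ± 0.06. The genes of the inducible proteasome subunits were lower, with PSMB9 at -0.72 ± 0.07 and PSMB8 at -0.43 ± 0.07. Without normalization the median of the class I list after IMQ was -0.30, so its sign depends on the scaling.

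Among dendritic cell markers, 3 of the 6 genes compared fell by at least 2-fold after IMQ. FLT3, a receptor of dendritic cell progenitors, read 382, 103, and 86.9 (-1.89 ± 0.18), CD1A read 400, 146, and 163 (-1.46 ± 0.18), and CD1C read 118, 49.4, and 39.8 (-1.26 ± 0.41). The summed normalized intensity of this list was 2638 in Ctrl, 1438 in IMQ, and 1428 in IMQ+DMD, and CLEC9A was not well above background on any array. Of 6 B cell markers, 5 were compared and 0 passed 2-fold, with a sum of 4818, 3903, and 4634. These sums follow the brightest probe of a list, and brightness differs between probes for reasons other than RNA level. In the B cell list that probe was the one for CD79A, at 4148, 3424, and 4011, and MS4A1 read 102, 83.2, and 157. CR2 was not well above background in IMQ. Of 5 T cell markers 0 passed 2-fold, with sums of 1084, 980, and 1162. The part of other cell types in the class II signal was not tested.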
